A study of Mus musculus with 8 samples.

Results

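Wnt signals reach a cell through Frizzled and LRP receptors, and secreted antagonists can limit the signal. The genes described here are 8 secreted antagonists (Sfrp1, Sfrp2, Sfrp4, Wif1, Notum, Dkk1, Dkk2 and Dkk3) and 2 receptors for R-spondins (Lgr5 and Lgr6), read from 10 of the 43432 rows of a table of gene counts. They were taken by name, matched through their mouse Ensembl identifiers, and all 10 were found. The list was not blind to the data: it was selected on the fold changes and calls of the group comparison in these same libraries. Its fold changes and adjusted p-values are therefore a description of the genes and support nothing further. 9 of the 10 passed the filter on low counts, and Dkk1 did not.

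The libraries are RNA-seq of mouse lung myofibroblasts at postnatal day 7 on a C57BL/6 background. 4 libraries (control 1 to control 4) came from wild-type cells and 4 (Fra-2 1 to Fra-2 4) from cells labelled as a Fra-2 transgenic line with constitutive Fra-2 expression. The labels of the latter 4 disagree among themselves, since their titles and genotype name Fra-2 but their source name also holds the word control. They were grouped by title. Fra-2 is the AP-1 transcription factor encoded by Fosl2. The sources used here do not give the promoter of the transgene, the way the cells were isolated or whether libraries came from separate animals. The p-values therefore cover only differences among these libraries, which may be technical.

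Lung myofibroblasts are contractile, matrix-making mesenchymal cells of the growing alveolar wall. SFRP proteins and Wif1 bind Wnt proteins outside the cell, Notum removes the lipid that Wnt proteins need for activity, and Dkk1 and Dkk2 block the LRP co-receptors. Dkk3 is the divergent member of its family, and it is counted as an antagonist here only by its place on the list. Lgr receptors bind R-spondins, which protect Frizzled receptors from the ubiquitin ligases Znrf3 and Rnf43 and so raise the response to Wnt. In the mouse lung, Lgr6 is known from airway smooth muscle and Lgr5 from mesenchyme of the alveolar region.

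Fosl2 itself was not higher beyond the spread in the libraries labelled Fra-2 transgenic, so the group is named by its label throughout. It measured 105, 117, 141 and 119 CPM (gene counts scaled to library size, with TMM factors) in control 1 to control 4 and 166, 134, 126 and 104 CPM in Fra-2 1 to Fra-2 4. On the log2 scale the difference was 0.14 with an SE of 0.136 (edgeR adjusted p = 0.888), and the 95% interval of the fold was 0.898 to 1.34. A two-sided exact permutation test gave p = 0.486, where 0.0286 is the smallest p possible. Total counts ran from 29926239 to 41335957 per library, and the 10 genes took 0.212% to 0.258% of them. Mitochondrial ribosomal RNA (mt-Rnr2) took 5.24% of the counts of control 2, while no gene took more than 1.71% in any other library. Xist, the RNA of the inactive X chromosome, was above 470 CPM in 2 libraries of each group (control 2, control 3, Fra-2 1 and Fra-2 3) and below 9 CPM in the others. The 10 marker genes of myofibroblasts were all well expressed, led by the smooth muscle myosin gene Myh11 (4029 and 4385 CPM in the control and the labelled transgenic libraries), and their summed level was 14855 to 16049 and 15111 to 18098 CPM. Of these markers Stc1 rose and Enpp2 fell, and the other 8 did not pass (0.72% of all tested genes were called higher and 0.298% lower).

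Promoter sequence is shown for 3 antagonists that differ in how they moved, since Fra-2 binds DNA at AP-1 sites and Wnt signals act through TCF sites. They are Sfrp2 (higher and past the threshold), Dkk2 (higher in mean, not past it) and Wif1 (lower in mean, not past it). The sequences come from RefSeq (GRCm38.p6), run 5′ to 3′ on the gene's own strand and stop before the first base of the gene model in GENCODE M21. The windows lie at chr3:83766071-83766320 (plus strand), chr3:132085042-132085291 (plus strand) and chr10:121033754-121033959 (plus strand). Capitals mark TATAAA on either strand, a match chosen after the sequences had been read.
Sfrp2: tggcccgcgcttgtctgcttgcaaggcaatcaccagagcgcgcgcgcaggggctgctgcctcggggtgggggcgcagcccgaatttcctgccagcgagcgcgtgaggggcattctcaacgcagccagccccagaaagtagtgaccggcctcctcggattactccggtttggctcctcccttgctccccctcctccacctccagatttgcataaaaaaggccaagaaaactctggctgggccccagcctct
Dkk2: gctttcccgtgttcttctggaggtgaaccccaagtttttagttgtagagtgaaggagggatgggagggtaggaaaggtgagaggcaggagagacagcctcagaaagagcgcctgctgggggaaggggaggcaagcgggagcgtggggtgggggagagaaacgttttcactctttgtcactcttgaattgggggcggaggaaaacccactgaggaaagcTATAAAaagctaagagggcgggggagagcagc
Wif1: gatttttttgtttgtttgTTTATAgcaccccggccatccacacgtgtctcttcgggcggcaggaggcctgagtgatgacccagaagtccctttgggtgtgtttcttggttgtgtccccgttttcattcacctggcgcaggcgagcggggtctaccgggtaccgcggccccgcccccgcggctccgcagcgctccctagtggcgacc
Windows of 300 bases (250 before and 50 after the start given by RefSeq) matched Sfrp2, Dkk1, Dkk2, Wif1 and Lgr6, and none matched Sfrp1, Sfrp4, Dkk3, Notum and Lgr5. On both strands, the AP-1 motif TGANTCA was in 0 of the 5 windows and in 7.81% of all 32851 windows of the same length. The related site TGACGTCA was also in 0 of the 5 (1.79% of all windows). Of the TCF motifs, CTTTGAA was in the Dkk1 window (5.14% of all), and CTTTGAT in none of the 5 (3.73% of all). TATAAA was in the windows of Dkk1, Dkk2 and Wif1 (13.6% of all windows) and shares no base with the other motifs there. The Dkk2 match begins 32 bases before the first base of the gene model, and the Wif1 match lies on the opposite strand. The Dkk1 matches lie inside the GENCODE gene model, since the RefSeq start of that window is further downstream. The GC content was 66.0% for Sfrp2, 57.7% for Dkk2 and 63.0% for Wif1, against a median of 52.7% over all windows. A match describes these letters, and a missing one says only that the letters are not in the window.

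The antagonists differed in level over several orders of magnitude, here compared as CPM per kb of exon (the union of annotated exons). Where that union is longer than the transcripts in use, the value is too low. In the control libraries Dkk3 was the most abundant at 505 ± 47.8 CPM per kb (SD, n = 4), above 99.8% of the tested genes. Lgr6 came next at 87.1 ± 8.29. Sfrp1 (12.2 ± 2.84) and Wif1 (11.1 ± 2.38) followed with overlapping libraries, and Sfrp2 stood below both at 4.12 ± 0.645. Notum (1.62 ± 0.480), Sfrp4 (0.917 ± 0.147) and Lgr5 (0.615 ± 0.134) formed a low group in which each overlapped its neighbour, and Dkk2 (0.277 ± 0.147) and Dkk1 (0.0729 ± 0.111) were lowest and overlapped each other. The order changed at 1 place in the labelled transgenic libraries. There Sfrp1 measured 39.1 ± 6.83 CPM per kb with no overlap with Wif1 (6.89 ± 2.98), and Wif1 lay next to Sfrp2 (8.17 ± 1.88), which it overlapped.

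**Figure D1:**
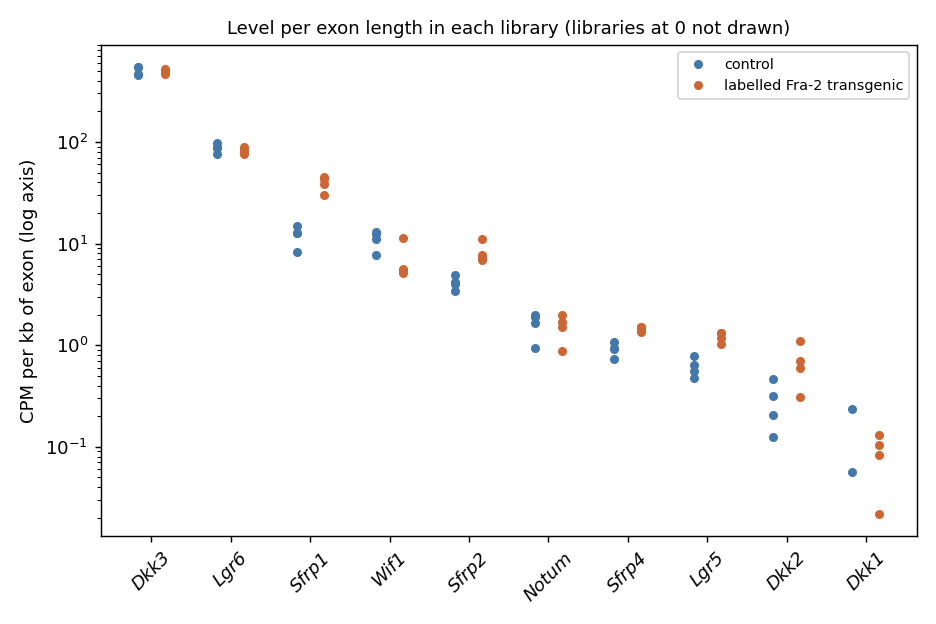
Level of each gene in CPM per kb of exon (log axis), with 1 point per library, control libraries to the left and libraries labelled Fra-2 transgenic to the right of each name. Dkk3 lies near 500 CPM per kb in both groups, Sfrp1 moves from a mean of 12.2 to 39.1, and the Dkk1 libraries control 3 and control 4, at 0 reads, are not drawn.

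Of the 9 tested genes, Sfrp1, Sfrp2 and Lgr5 rose in the libraries labelled Fra-2 transgenic, 0 fell and 6 did not pass (edgeR, adjusted p under 0.05 over all 15422 tested genes). Over all genes tested, 0.72% were called higher and 0.298% lower by the same rule. In 4 of the 9, Sfrp1, Sfrp2, Sfrp4 and Lgr5, every labelled transgenic library lay above every control library, a separation upwards that 3.35% of all tested genes had. None of the 9 was separated downwards, as 2.42% of all tested genes were. The median log2 fold change was 0.65 over the 9 genes and -0.01 over all tested genes. Because the list was chosen with these results known, neither the counts nor the median is evidence about the family.

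Sfrp1, a soluble Frizzled-like Wnt binder (ENSMUSG00000031548, chromosome 8, 23411502 to 23449632 in GRCm38, plus strand), had the largest fold change of the tested genes of the list. Its levels were 35.9, 55.5, 55.8 and 65.5 CPM in control 1 to control 4 and 198, 130, 167 and 188 CPM in Fra-2 1 to Fra-2 4. The groups stood far apart, with Fra-2 2 the lowest of its group and still about as far above the highest control as that control was above 0. The fold change was 3.21 (95% interval 2.47 to 4.17), or 1.68 on the log2 scale (SE 0.175, edgeR adjusted p = 0.000346), and the gene was number 10 of all tested genes by p. Each library held 1566 to 7094 reads on it. With any 1 library left out, the log2 fold change stayed between 1.54 (without control 1, the lowest control) and 1.80, and the adjusted p was at most 0.00264.

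Sfrp2, a close relative (ENSMUSG00000027996, chromosome 3, 83766321 to 83774316), rose from 7.27, 8.98, 10.6 and 8.60 CPM in control 1 to control 4 to 16.4, 14.97, 23.6 and 15.4 CPM in Fra-2 1 to Fra-2 4. Fra-2 3 stood above the other 3 of its group, which lay close together. The groups did not overlap. This is a log2 fold change of 0.99 with an SE of 0.181 (edgeR adjusted p = 0.016), or a fold of 1.98 with a 95% interval of 1.52 to 2.60. Leaving out control 2, Fra-2 1 or Fra-2 3 ended the call, at adjusted p = 0.061, 0.0542 and 0.0695 in turn. Exons of the antisense gene Gm26771 cover 347 bases of Sfrp2 exons, and no stranded step is named, so their reads cannot be told apart where they overlap. Gm26771 itself held at most 16 reads in a library, against 286 to 749 for Sfrp2.

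Sfrp4, the third family member on the list, measured 3.95, 3.02, 3.85 and 4.51 CPM in the controls and 6.23, 6.37, 5.86 and 5.57 CPM in the labelled transgenic libraries. The groups did not overlap, and the libraries of each group lay close together. The log2 fold change was 0.65 (SE 0.203), with a 95% interval of 0.21 to 1.08, and it did not pass in edgeR (adjusted p = 0.229). DESeq2 gave 0.65 with an adjusted p of 0.0492, just under the threshold, by a rule that called 1.66% of the genes higher. The other related gene on the wider list, Frzb, measured 3.53 ± 0.502 and 2.75 ± 1.47 CPM and did not pass (log2 fold change -0.36, SE 0.327). Sfrp5 had at most 7 reads in a library and was not tested.

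As a share of the summed level per kb of Sfrp1, Sfrp2, Sfrp4 and Frzb, Sfrp1 made up 59.5%, 68.1%, 65.4% and 70.7% in control 1 to control 4. The share was 82.1%, 76.7%, 73.4% and 82.6% in Fra-2 1 to Fra-2 4. All 4 labelled transgenic libraries lay above the controls, and Fra-2 3, which had the most Sfrp2, had the smallest share of its group. Sfrp1 was the main gene of this family in every library.

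**Figure D2:**
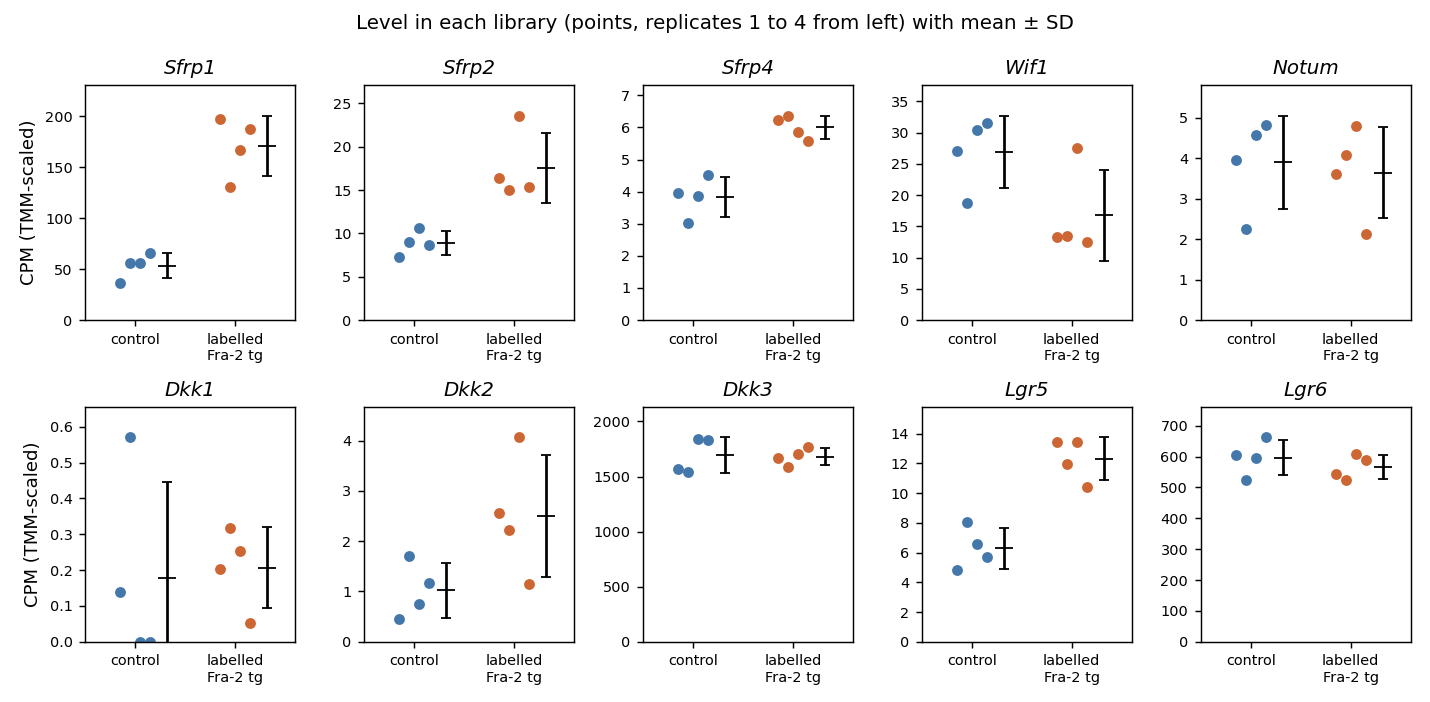
CPM of the 10 genes in each library, in panels with linear axes from 0; points run from replicate 1 to replicate 4, and the bar beside them is the mean ± SD (n = 4), with the lower bar of Dkk1 ending at the axis. Sfrp1, Sfrp2, Sfrp4 and Lgr5 show no overlap between groups, while for Wif1 the library Fra-2 3 at 27.6 CPM lies among the controls.

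Wif1, which binds Wnt proteins through its own WIF domain, had the lowest log2 fold change of the tested genes of the list. It measured 27.0, 18.8, 30.5 and 31.5 CPM in control 1 to control 4 and 13.3, 13.5, 27.6 and 12.5 CPM in Fra-2 1 to Fra-2 4. 3 labelled transgenic libraries lay below every control, and Fra-2 3 lay within the control range. The log2 fold change was -0.69 (SE 0.252, 95% interval -1.24 to -0.14), which did not pass (edgeR adjusted p = 0.389). Without Fra-2 3 it was -1.03 and passed (adjusted p = 0.0252), in a fit that called 0.195% of genes lower. With any other library left out, the adjusted p was 0.298 or higher.

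Notum, the Wnt-inactivating carboxylesterase, did not pass. Its levels were 3.95, 2.25, 4.58 and 4.81 CPM in the controls and 3.60, 4.08, 4.79 and 2.12 CPM in the labelled transgenic libraries, and the groups covered nearly the same range. The log2 fold change was -0.10 (SE 0.303) with a 95% interval of -0.75 to 0.55, or 0.596 to 1.47 as a fold. In the controls, Notum and Wif1 were both lowest in control 2 and highest in control 4, and in the other group both were highest in Fra-2 3 and lowest in Fra-2 4. Exons of the antisense genes Notumos and Myadml2os cover 708 and 210 bases of Notum exons, with at most 13 and 14 reads of their own in a library.

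The Dickkopf genes did not pass. Dkk3 was high and even, at 1569, 1544, 1838 and 1830 CPM in the controls and 1669, 1583, 1708 and 1764 CPM in the labelled transgenic libraries. Its log2 fold change was -0.01 (SE 0.096), and the 95% interval of the fold, 0.860 to 1.14, is narrow. Of the summed level per kb of the 8 genes listed as antagonists, Dkk3 made up 93.9% to 94.8% in the controls and 88.6% to 91.1% in the other group. This is a share of RNA and does not measure activity against Wnt. The lower share came with more Sfrp1 in the sum, while the level of Dkk3 itself differed by less than its spread.

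Dkk2, an LRP ligand, was low. It measured 0.459, 1.71, 0.758 and 1.17 CPM in control 1 to control 4 and 2.57, 2.23, 4.06 and 1.14 CPM in Fra-2 1 to Fra-2 4, from 20 to 129 reads. Fra-2 4 lay within the control range and the other 3 above it. The log2 fold change was 1.29 with a wide error (SE 0.465, 95% interval 0.29 to 2.28) and did not pass (edgeR adjusted p = 0.354). Dkk1, the best known LRP blocker, had 6, 20, 0 and 0 reads in control 1 to control 4 and 7, 10, 8 and 2 reads in Fra-2 1 to Fra-2 4, too few to pass the filter. A count of 0 allows up to 3 reads, or 0.0948 and 0.0903 CPM in control 3 and control 4. The read counts of the groups overlapped.

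The Lgr receptors differed in level and in what they did. Lgr6 measured 605, 524, 596 and 662 CPM in control 1 to control 4 and 542, 525, 609 and 590 CPM in Fra-2 1 to Fra-2 4, with full overlap. Its log2 fold change was -0.08 (SE 0.0998), and the 95% interval of the fold was 0.818 to 1.10. Airway smooth muscle markers, given here because Lgr6 is known from that cell type, summed to 1992 to 2542 CPM in the controls and 1959 to 2598 CPM in the other group. Of their 7 tested genes 0 passed in edgeR, 1 had an unadjusted p under 0.05 (8.71% of all tested genes did), and the most abundant was Actg2 (802 and 895 CPM).

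Lgr5 (ENSMUSG00000020140, chromosome 10, 115450311 to 115587780, minus strand) rose from 4.84, 8.07, 6.60 and 5.72 CPM in control 1 to control 4 to 13.5, 11.9, 13.4 and 10.4 CPM in Fra-2 1 to Fra-2 4. The groups did not overlap. The fitted log2 fold change of 0.97 had an SE of 0.186 (edgeR adjusted p = 0.0222), a fold of 1.95 with a 95% interval of 1.48 to 2.58. Leaving out 1 of control 1, control 3, Fra-2 1 and Fra-2 3 ended the call, at adjusted p = 0.0538, 0.0704, 0.107 and 0.102, while the log2 fold change stayed between 0.86 and 1.11.

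Lgr4, the third receptor of the family, measured 24.3 ± 2.34 and 28.3 ± 2.77 CPM and did not pass (log2 fold change 0.22, SE 0.128). Of the summed level per kb of Lgr4, Lgr5 and Lgr6, Lgr5 made up 0.511% to 0.967% in the controls and 1.10% to 1.54% in the labelled transgenic libraries. Lgr6 made up 94.0% to 95.6% and 92.7% to 93.6%. Lgr5 thus remained a small part of the summed RNA level per kb of Lgr4, Lgr5 and Lgr6 in each library after its rise. That part depends on the exon length used, 10264 bases for Lgr5 and 6851 bases for Lgr6. Receptor protein was not measured.

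**Figure D3:**
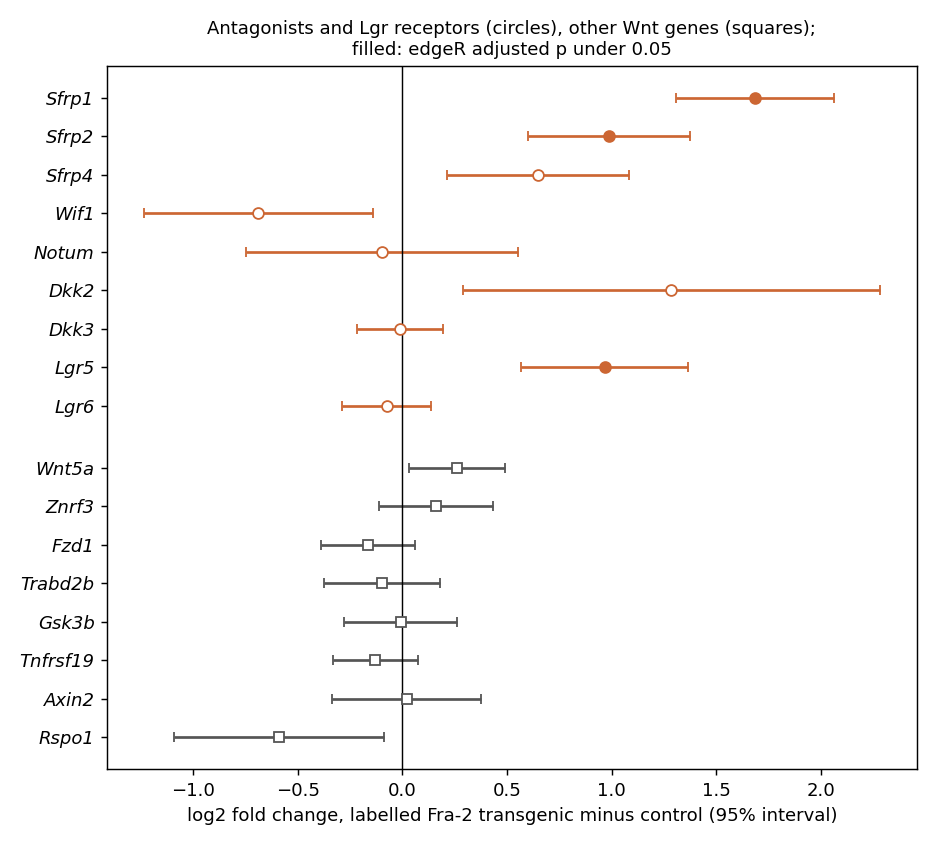
Log2 fold change (labelled Fra-2 transgenic minus control) with its 95% interval for the 9 tested antagonists and Lgr receptors (circles) and 8 other Wnt genes (squares), filled where the edgeR adjusted p is under 0.05. Sfrp1 at 1.68, Sfrp2 at 0.99 and Lgr5 at 0.97 are filled, and none of the squares is.

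The rest of the Wnt pathway was read from 81 further genes, of which 63 passed the filter. Of these 63, 0 rose and 0 fell in edgeR, 7 had an unadjusted p under 0.05 (8.71% of all tested genes did), and the median log2 fold change was 0.03. limma-voom called 0 in either direction (0.707% of all genes higher and 0.259% lower), and DESeq2 called 0 higher and 1 lower, by a rule that called 0.651% of genes lower. That gene was Wnt9a, a Wnt ligand, named after its values were seen. It measured 64.0, 64.4, 52.9 and 49.9 CPM in the controls and 33.8, 41.3, 38.9 and 48.3 CPM in the other group, with no overlap, and a log2 fold change of -0.51 (SE 0.133) that missed the threshold in edgeR (adjusted p = 0.109). Of the 63 genes, 2 were separated downwards (Wnt9a and Rspo1), as 2.42% of all tested genes were. Separated upwards was 1, Kremen1 (18.8 ± 2.08 and 22.9 ± 1.01 CPM, edgeR adjusted p = 0.551), against 3.35% of all tested genes. By role, 10 of 21 ligand genes (with the secretion factors Porcn and Wls), 7 of 7 genes of R-spondins and receptor turnover, 14 of 15 receptors, 6 of 11 other antagonists, 15 of 15 signal transducers and 11 of 12 target genes were tested.

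The most abundant tested gene of each role did not pass in edgeR. Wnt5a, the main ligand gene, measured 1227 ± 121 and 1472 ± 164 CPM. This is a difference of 0.26 on the log2 scale (SE 0.108, edgeR adjusted p = 0.476), with a 95% interval of 0.03 to 0.49 that leaves out 0. The receptor gene Fzd1 measured 494 ± 38.5 and 441 ± 46.6 CPM. Values were 74.6 ± 13.3 and 83.4 ± 8.03 CPM for Znrf3, the ligase that R-spondins and Lgr receptors remove. Trabd2b, a membrane protease that cleaves Wnt proteins, measured 170 ± 10.8 and 159 ± 30.0 CPM, and the kinase gene Gsk3b 910 ± 162 and 905 ± 78.9 CPM. Tnfrsf19, counted as a target gene, measured 816 ± 70.1 and 747 ± 37.0 CPM. None of these passed.

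Ligands of the Lgr receptors and the standard feedback target were also read, outside the naming rule. Rspo1 measured 5.87, 5.76, 5.78 and 4.90 CPM in control 1 to control 4 and 4.44, 3.50, 4.47 and 2.41 CPM in Fra-2 1 to Fra-2 4, all lower than the controls. Its log2 fold change of -0.59 (SE 0.234) did not pass (edgeR adjusted p = 0.432). Rspo2 (2.59 and 3.57 CPM), Rspo3 (1.25 and 1.58 CPM) and Rspo4 (0.715 and 0.706 CPM) overlapped between groups. Axin2, which Wnt signalling induces in most tissues, measured 104 ± 15.3 and 106 ± 28.0 CPM, with a log2 fold change of 0.02 and a 95% interval of -0.33 to 0.37. Its highest library was Fra-2 2 at 144 CPM and its lowest Fra-2 1 at 81.2 CPM, so the spread within the labelled transgenic group exceeded the difference between groups. Of the 11 tested target genes, Ccn4 had the lowest adjusted p (0.206 in edgeR) and did not pass. It measured 148 ± 25.6 and 211 ± 41.5 CPM with overlap, a log2 fold change of 0.51 (95% interval 0.18 to 0.84).

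Some marker genes of adventitial fibroblasts rose beside Sfrp1, Sfrp2 and Lgr5, and in bulk RNA a larger share of such cells and more RNA per cell cannot be told apart. Of 11 tested adventitial fibroblast markers, 3 rose (Dpt, Dcn and Serpinf1), 0 fell and 8 did not pass, with a median of 0.57 on the log2 scale for the tested genes. Over all tested genes 0.72% were called higher and 0.298% lower. The edgeR adjusted p was 0.0323 for Dcn and just under the threshold for Dpt (0.0490) and Serpinf1 (0.0497). The summed level of the 12 adventitial markers was 1801 to 2244 CPM in the controls and 2157 to 2600 CPM in the other group, led by Col14a1. Low on the list were Pi16 (7.21 and 8.80 CPM), Clec3b (7.96 and 12.4 CPM), Ccl11 (2.99 and 5.03 CPM) and Ly6a (0.908 and 1.35 CPM). These did not pass, and Ly6c1 was not tested. Of 12 alveolar matrix and lipid fibroblast markers 0 passed in edgeR, 7 had an unadjusted p under 0.05 (8.71% of all tested genes did), and all 12 had a positive log2 fold change (7377 of all 15422 tested genes did), with a median of 0.54. Of these 12 genes 5 were separated upwards, as 3.35% of all tested genes were. The sum of the 12, most of it Mfap4 (3071 and 4189 CPM), was 2690 to 4494 CPM and 4665 to 5282 CPM, with no overlap. It was lowest in control 1, which also had the least Sfrp1, Sfrp2, Dkk2 and Lgr5. Control 1 was lowest for the adventitial, cartilage, mesothelial, epithelial, endothelial and leukocyte sums too. In control 2 to control 4 the alveolar sum was 3159, 3788 and 4494 CPM. Over these libraries Sfrp1 measured 55.5, 55.8 and 65.5 CPM, rising with the sum. Sfrp2 was highest in control 3 (8.98, 10.6 and 8.60 CPM), and Lgr5 fell (8.07, 6.60 and 5.72 CPM). The 6 cartilage markers summed to 36.2 to 48.2 CPM and 56.3 to 74.7 CPM, also without overlap. Most of this sum was Col2a1 (42.4 and 58.0 CPM), and Matn1 was at 0 in all 8 libraries. Of the 3 tested cartilage genes 0 passed the threshold and 2 had an unadjusted p under 0.05 (8.71% of all tested genes did). The 7 mesothelial markers with a row, led by Upk3b, summed to 3.99 to 10.05 CPM and 7.36 to 15.6 CPM. The part of these cells in the results was not tested.

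Summed levels of the remaining marker lists overlapped between groups. They were 3121 to 3513 and 2530 to 3530 CPM for 8 pericyte markers (led by Postn), and 59.8 to 141 and 117 to 226 CPM for 10 epithelial markers (led by Sftpc). For 8 endothelial markers (led by Cdh5) they were 54.3 to 78.8 and 73.5 to 91.9 CPM. They were 76.9 to 112 and 89.2 to 119 CPM for 8 leukocyte markers (led by Lyz2) and 8.67 to 17.5 and 11.1 to 19.7 CPM for 6 Schwann and neural markers (led by S100b). In edgeR 0 genes of these lists or of the mesothelial list passed, with 3, 1, 1, 0, 1 and 2 at an unadjusted p under 0.05 in the pericyte, epithelial, endothelial, leukocyte, neural and mesothelial lists. Over all tested genes 8.71% had such a p.

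**Figure D4:**
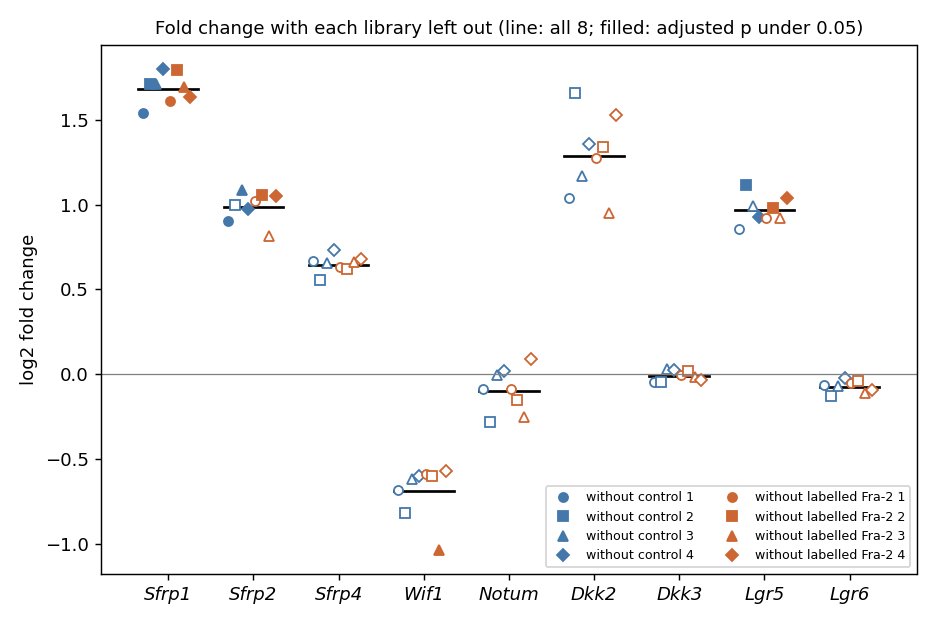
Log2 fold change of the 9 tested genes with each of the 8 libraries left out in turn; the black line is the value with all 8, colour and shape give the library left out, and symbols are filled where the edgeR adjusted p is under 0.05. Sfrp1 is filled throughout, Sfrp2 in 5 and Lgr5 in 4 of 8 fits, and Wif1 in 1, without Fra-2 3.

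The genes whose pattern over the 8 libraries was nearest to that of each called gene were read by the root mean square difference of log2 CPM after subtracting each gene's mean. The search covered the 9719 genes that averaged 5 CPM or more. Nearest to Sfrp1 were the metalloproteinase gene Mmp19 (0.19), the TGF-beta co-receptor gene Cd109 (0.25) and the sphingosine phosphate receptor gene S1pr3 (0.26), against a median of 0.91 for all candidates. Mmp19 went from 10.9 ± 3.14 to 32.8 ± 4.02 CPM and S1pr3 from 30.8 ± 4.16 to 85.2 ± 18.3 CPM. Nearest to Sfrp2 were the guidance ligand gene Slit3 (0.16), the chemokine gene Cxcl12 (0.16) and Scube3 (0.16), with a median of 0.57. Nearest to Lgr5 were the transcription factor gene Creb3l1 (0.17), Slit3 (0.21) and the dynamin gene Dnm1 (0.22), with a median of 0.57. Slit3 went from 57.4 ± 10.4 to 95.6 ± 14.0 CPM and Creb3l1 from 109 ± 10.4 to 227 ± 16.6 CPM. These distances rest on the same 8 libraries and contain the group difference itself.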

How the data were processed

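Counts per gene were deposited by the authors as whole numbers, 1 column per library, with no normalization. Per the labels' protocols, mRNA was taken from 50 ng of total RNA, cDNA was amplified and libraries were made with a transposase kit, and no step that marks strand is named. The aligner and counter are not named in the sources at hand. The submitters' processing notes name the human build GRCh38, while identifiers are those of mouse genes. Names, coordinates and exon lengths (the union of exons) were taken from GENCODE M21 (GRCm38), which with the gene name table gave a symbol to 42462 identifiers.

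Genes were filtered with filterByExpr of edgeR 4.0.16 (minimum count 10, minimum total 15, leaving 15422), scaled by TMM and compared with the robust quasi-likelihood F-test in R 4.3.3, two-sided, with Benjamini-Hochberg adjustment over all tested genes at 0.05. Standard errors were derived from F, as |log2 fold change| / √F. Alternatives were scaling by total counts, by upper quartiles or by RLE, no filter, a filter of 5 CPM in 4 libraries, DESeq2 1.42.0, limma-voom (limma 3.58.1), dispersion without robust estimation, replicate number as a block, each library left out in turn and a prior count of 2. The steps were tested on simulated counts. Counting error follows from library totals of 29926239 to 41335957.

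The genes, pathway and marker lists were chosen with earlier results of these data known. The text names all 10 listed genes, each called Wnt gene or the most abundant of its role, the 3 genes nearest in pattern to each called gene and the most abundant gene of each marker list. Other genes named in the text were chosen after their values were seen.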

Additional observations from a re-analysis of the deposited data

Results flagged for a closer look

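The 4 libraries of each group were checked for 1 that stood far from the others, for each of the 10 genes. Of the 20 group checks 2 passed, where chance gives about 1 in 20. Both concern the library Fra-2 3. Its Wif1 level of 27.6 CPM lay far above the other labelled transgenic libraries (12.5 to 13.5 CPM), with a gap of 0.936 of the group's range. Its Sfrp2 level of 23.6 CPM lay above the others of its group (14.97 to 16.4 CPM), with a gap of 0.830 of the range that only just passed. Without Fra-2 3 the call of Sfrp2 was lost (log2 fold change 0.82, edgeR adjusted p = 0.0695) and Wif1 passed downwards (-1.03, edgeR adjusted p = 0.0252). Its total count, 32656441, was within the range of the other libraries.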

How the results depend on the processing

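Sfrp1 kept its direction in each alternative that was run, with log2 fold changes of 1.54 to 1.80, and its call in each new fit. The prior count of 2 changed only the fold changes and kept the p-values of the main fit, so it cannot test a call. Sfrp2 and Lgr5 kept their direction in each alternative. They kept their calls under each scaling, filter, tool and the replicate block. They lost only the call without single libraries as given above, where the log2 fold changes ran over 0.82 to 1.09 and 0.86 to 1.11. The number of listed genes called higher ran from 1 (without Fra-2 1 or Fra-2 3) to 3 over the fits without 1 library, and the number called lower from 0 to 1. Over the same fits the counts for the other Wnt genes ran from 0 to 1 higher (1 being Ccn4 without Fra-2 2) and 0 lower. 1 was called lower with no filter and 1 with DESeq2, both times Wnt9a. Over all genes, 50 to 153 were higher and 22 to 52 lower without 1 library, and DESeq2 called 266 higher and 104 lower, against 111 and 46. The sign of Dkk3 and of Notum, neither of them called, changed without some libraries. Dkk3 ran from -0.048 to 0.033, being positive without control 3 (0.033), control 4 (0.028) or Fra-2 2 (0.017). Notum ran from -0.28 to 0.093, being positive without control 4 (0.021) or Fra-2 4 (0.093). The cause of these changes was not tested. Fits without 1 library have fewer samples. Same-numbered libraries had correlations of their deviations of 0.0018, 0.22, 0.08 and 0.31. Replicates 2, 3 and 4 of the controls matched their own number best, and replicate 1 matched number 2 best. Whether the numbers pair the libraries is thus not settled, and the main fit did not pair them. With the replicate block, 137 genes were higher and 53 lower, 3 listed genes were higher, and the log2 fold change of Fosl2 was 0.12. Depth limits Dkk1, with at most 20 reads in a library.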
